A study of Mus musculus with 4 samples.

Results

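Transcripts of neutrophil granule proteins and neutrophil receptors were followed in mouse aorta after chronic rosiglitazone. The 10 genes were taken by symbol, or an older alias, from probe sets that the array's annotation gives a single gene symbol. They are Mpo, Elane, Prtn3, Ctsg, Ltf, Camp, Ngp and Chil3, which encode granule or secreted proteins, and Csf3r and Fpr1, which encode surface receptors. A total of 9 of the 10 had a probe set, 12 probe sets in all, among 8251 genes named in this way. No probe set was given the symbol Fpr1, so that gene has no value here. RNA came from pooled aortas of adult male C57BL/6J mice. The rosiglitazone group received 25 mg/kg of this PPARγ agonist per day for 21 days, and the vehicle group received vehicle for the same 21 days. Each group had 2 arrays, and the labels name no engineered allele. Neither the number of mice in a pool nor whether the arrays of a group were separate pools is given in the sources used here, so p-values cover only the variation among these arrays and may reflect technical error.

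Neutrophils carry their antimicrobial proteins ready-made in granules that are filled in the bone marrow. The primary (azurophil) granule proteins myeloperoxidase, neutrophil elastase, proteinase 3 and cathepsin G are transcribed mainly in promyelocytes, and the secondary (specific) granule proteins lactoferrin, cathelicidin and neutrophilic granule protein later, in myelocytes and metamyelocytes. A mature neutrophil in blood or tissue therefore holds much granule protein but little of the matching mRNA, whereas transcripts of the cytosolic proteins S100a8 and S100a9 and of the G-CSF receptor persist in it. The comparison asks whether the granule genes were detectable in aortic RNA, and whether they differed between treated and control aortas as S100a8 and S100a9 did.

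The 4 genes of primary granule proteins share a short run of letters before their starts. In the 250 bases before the RefSeq start of each (assembly GRCm38.p6), the letters AGGAAGT, a core recognised by ETS factors such as PU.1, were present in 4 of 4 genes, against 7.69% of 32851 windows of the same length in the whole promoter table, searched on both strands. Of the other 6 genes only Chil3 held it. The letters TTGCNNAA, part of the sequence bound by C/EBP factors, were present in 0 of these 4 and in Ltf and Ngp among the other 6, against 9.56% of all windows. The motifs were chosen after the windows were read, so these counts cannot serve as a test of an excess. A match is a description of letters, not a bound site. The 4 windows are shown because the genes belong to the same granule. They run 5′ to 3′ on the strand of the gene, with AGGAAGT in capitals.
Mpo, chr11:87793534-87793783, plus strand: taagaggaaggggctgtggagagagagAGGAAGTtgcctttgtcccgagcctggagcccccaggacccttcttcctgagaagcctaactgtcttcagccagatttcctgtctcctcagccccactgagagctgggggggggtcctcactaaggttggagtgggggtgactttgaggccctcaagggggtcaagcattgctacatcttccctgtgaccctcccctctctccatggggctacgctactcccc
Elane, chr10:79886062-79886311, plus strand: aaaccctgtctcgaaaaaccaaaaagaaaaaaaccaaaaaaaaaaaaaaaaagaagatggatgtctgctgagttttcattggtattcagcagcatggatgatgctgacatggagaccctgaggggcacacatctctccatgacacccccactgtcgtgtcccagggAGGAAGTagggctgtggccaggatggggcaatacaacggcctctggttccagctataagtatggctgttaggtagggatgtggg
Prtn3, chr10:79879417-79879666, plus strand: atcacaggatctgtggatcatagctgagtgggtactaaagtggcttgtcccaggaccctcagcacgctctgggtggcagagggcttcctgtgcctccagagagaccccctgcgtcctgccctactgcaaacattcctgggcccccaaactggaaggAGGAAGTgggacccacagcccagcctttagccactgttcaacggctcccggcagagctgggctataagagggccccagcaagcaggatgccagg
Ctsg, chr14:56102575-56102824, minus strand: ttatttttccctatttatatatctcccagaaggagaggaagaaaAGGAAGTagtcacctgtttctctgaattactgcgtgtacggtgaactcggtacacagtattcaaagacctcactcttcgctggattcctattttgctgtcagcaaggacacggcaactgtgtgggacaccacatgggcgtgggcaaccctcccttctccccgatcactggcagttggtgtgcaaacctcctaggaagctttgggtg
The match began 223 bases before the start of Mpo, 84 before Elane, 94 before Prtn3 and 206 before Ctsg. Prtn3 and Elane are adjacent protein-coding genes on chromosome 10, and Ltf, Camp and Ngp all lie on chromosome 9.

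The values are intensities on a linear scale, of Affymetrix MG-U74Av2 arrays, with no detection calls in the table used here. The 40th percentile of an array's own probe sets therefore served as its background level, at intensities of 385 and 415 on the rosiglitazone arrays, against 434 and 419 on the vehicle arrays. Smooth muscle of the vessel wall was represented by 5 of 6 markers above this level on both rosiglitazone arrays and 6 of 6 on both vehicle arrays. All 6 were lower on both rosiglitazone arrays than on either vehicle array, where 20.3% of all probe sets were. Their median log2 fold change was -1.30, and 6 of 6 had an unadjusted p under 0.05 in limma, where 10.9% of all tested did. Of them only Tagln, an actin-binding protein of smooth muscle, passed (limma, adjusted p = 0.0455), where 0.322% of all tested fell past the threshold. The 5 brown adipocyte markers were above background on both arrays of each group, with a median log2 fold change of 0.90. For 4 of them both rosiglitazone arrays were higher with no overlap, where 17.9% of all probe sets were. Fabp3, a fatty acid-binding protein, rose (log2 fold change 1.55, limma adjusted p = 0.024), where 0.0421% of all tested rose past the threshold. Neither call held without vehicle replicate 3 or without vehicle replicate 4. These tissue markers differed on the same arrays as the neutrophil genes described here, and their part in those differences was not tested. The small number of arrays limits the precision of every value.

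Most granule gene probe sets lay near the background level, and no difference between the groups passed the test. Of the 12 probe sets, 4 were above background on both rosiglitazone arrays and 6 on both vehicle arrays, where 51% and 51.6% of all 12422 probe sets were. The 5 that passed the filter on dim probe sets, against 57.4% of all, belonged to Mpo, Elane, Ltf, Camp and Csf3r. Among those 5, 0 passed an adjusted p of 0.05 in limma, where 0.364% of the 7134 probe sets tested did (0.0421% higher and 0.322% lower), and 1 had an unadjusted p under 0.05, where 10.9% did. Over all 12 probe sets the median log2 fold change was -0.43, against 0 over all 12422, and it turned to 0.11 when rosiglitazone replicate 2 was left out. The groups did not overlap in 4 of the 12, a share to be read against 38.1% of all probe sets. Of these 3 were lower and 1 higher with rosiglitazone, where 20.3% and 17.9% of all were. Summed over the 12, intensity was 10838 and 6286 on the rosiglitazone arrays, against 10806 and 10430 on the vehicle arrays. The groups overlap in this sum, and rosiglitazone replicate 2 was the lowest array.

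**Figure D1:**
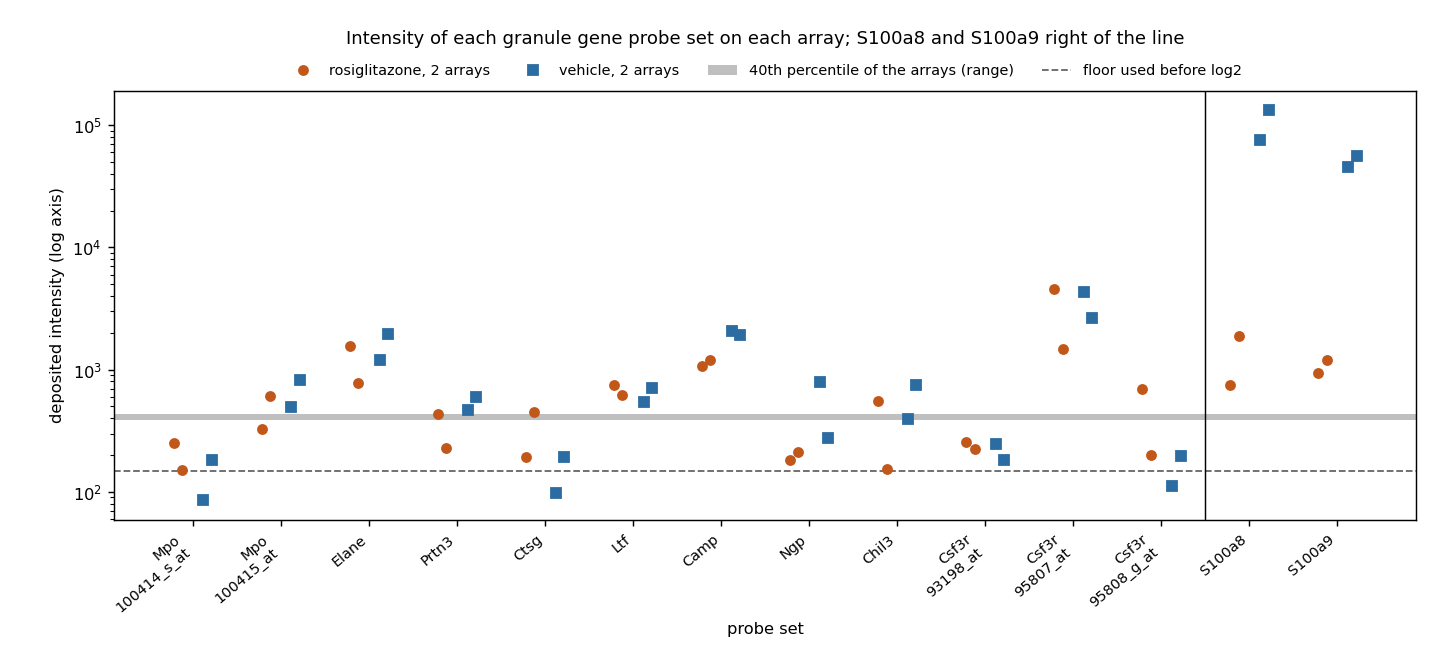
Deposited intensity (log axis) of the 12 granule gene probe sets, and of S100a8 and S100a9 right of the vertical line, on 2 rosiglitazone arrays (circles) and 2 vehicle arrays (squares). The grey band spans the arrays' 40th percentiles, 385 to 434, and the dashed line is the floor of 148; most granule gene points lie within a few fold of the band, while S100a8 and S100a9 on the vehicle arrays lie far above it.

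Elane, neutrophil elastase, was the only primary granule gene above background on all 4 arrays (probe set 100755_at). It had intensities of 1560 and 783 on the rosiglitazone arrays, against 1203 and 1950 on the vehicle arrays. The groups overlap, and the arrays of each group differed by more than the group means did. Its log2 fold change was -0.47 ± 0.45 (standard error; limma, adjusted p = 0.77), and it was 0.03 without rosiglitazone replicate 2. The 95% interval ran from -1.49 to 0.55, which includes values from 2.81-fold lower to 1.46-fold higher.

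Mpo encodes myeloperoxidase, the haem enzyme that makes hypochlorous acid and is the most abundant primary granule protein. Its brighter probe set, 100415_at, had 326 and 610 with rosiglitazone, against 499 and 825 with vehicle. These groups overlap around the background level, with a log2 fold change of -0.53 and a standard error of 0.69 (limma, adjusted p = 0.834). The other, 100414_s_at, whose suffix marks probes that can match more than 1 transcript, had 251 and 152 with rosiglitazone, against 85 and 181 with vehicle. It lay below background on all 4 arrays and was not tested, and its difference of 0.26 on the log2 scale had the opposite sign.

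The other primary granule proteases were dim. Prtn3, proteinase 3, had 435 and 229 on the rosiglitazone arrays, against 468 and 597 on the vehicle arrays (probe set 104541_at). Both vehicle arrays were higher, and rosiglitazone replicate 2 alone was below background, a log2 difference of -0.74 that was not tested because the probe set was below the filter. Ctsg, cathepsin G, a chymotrypsin-like protease also made by mast cells, had 193 and 454 with rosiglitazone, against 97 and 194 with vehicle (probe set 92924_at). Only rosiglitazone replicate 2 was above background, and the log2 difference of 0.81 was not tested. Of the 12 mast cell genes with a probe set, 5 were above background on both rosiglitazone arrays and 6 on both vehicle arrays, with a median log2 fold change of -0.10 (0.01 with probe sets chosen by mean intensity), 0 past the threshold in limma and 1 at an unadjusted p under 0.05. Their summed intensity ran from 9233 to 11630 with rosiglitazone and from 13252 to 13800 with vehicle. Hdc weighed heavily in that gap, at 1216 and 1125 with rosiglitazone, against 3602 and 3043 with vehicle. It was the 1 of 6 tested at an unadjusted p under 0.05, where 10.9% of all tested probe sets were. Of the 12 genes, 6 had a log2 fold change below 0 and 5 above. None of them was listed at 0, and the part of mast cells in the Ctsg values was not tested.

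Among the secondary granule genes, Camp differed most evenly. Camp encodes the cathelicidin precursor, from which the antimicrobial peptide CRAMP is cut (probe set 92322_at). It had 1072 and 1191 on the rosiglitazone arrays, against 2059 and 1919 on the vehicle arrays. Its rosiglitazone values were below both vehicle values, and all 4 values were above background, at percentiles 65.2 and 67.1 of the rosiglitazone arrays and 78.6 and 77.7 of the vehicle arrays. The log2 intensity averaged 10.14 ± 0.11 in the rosiglitazone group, against 10.96 ± 0.072 in the vehicle group (SD, n = 2 each). The log2 fold change of -0.81 (standard error 0.33, 95% interval -1.56 to -0.07) had an unadjusted p of 0.0363 and did not pass the adjustment in limma (adjusted p = 0.416). Under the 11 alternatives it stayed between -0.89 and -0.73.

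Ltf encodes lactoferrin, the iron-binding protein of secondary granules (probe set 101115_at). Its intensities were 742 and 615 with rosiglitazone, against 545 and 708 with vehicle. The 4 values interleave, and the log2 fold change was 0.12 ± 0.55 (standard error; limma, adjusted p = 0.959), turning to -0.01 without rosiglitazone replicate 1 and -0.07 without vehicle replicate 3. Ngp, neutrophilic granule protein, a cystatin-like protein, had 182 and 210 with rosiglitazone, against 792 and 277 with vehicle (probe set 96153_at). Only vehicle replicate 3 was above background, and the log2 difference, -1.26, was -0.50 without that array. Chil3, a chitinase-like lectin also known as Ym1 that macrophages make too, had 552 and 155 with rosiglitazone, against 398 and 750 with vehicle (probe set 92694_at). The groups overlap, and each held 1 array above background. The log2 difference of -0.90 became 0.01 without rosiglitazone replicate 2. Neither Ngp nor Chil3 was tested. Chil4, a close relative of Chil3, is its neighbour on chromosome 3, and signal from it could not be told apart here.

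Csf3r encodes the receptor for G-CSF, the cytokine that drives neutrophil production, and had 3 probe sets that disagreed. The brightest, 95807_at, had 4567 and 1465 on the rosiglitazone arrays, against 4304 and 2650 on the vehicle arrays. The rosiglitazone arrays were the highest and the lowest of the 4, and the log2 fold change was -0.39 ± 0.49 (standard error; limma, adjusted p = 0.827). Leaving out rosiglitazone replicate 2 gave 0.43, and leaving out rosiglitazone replicate 1 gave -1.21. Probe set 95808_g_at had 700 and 199 with rosiglitazone, against 111 and 195 with vehicle, a log2 difference of 1.14. That made it the only granule or receptor probe set with both rosiglitazone arrays above both vehicle arrays, by a margin of 199 against 195 at the nearest pair. Probe set 93198_at was below background on every array, at 258 and 223 with rosiglitazone, against 245 and 184 with vehicle. The last 2 probe sets were not tested. In bulk RNA, fewer cells of a type and less RNA per cell cannot be told apart, and this holds for every difference given here.

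The 5 tested granule and receptor probe sets differed far less between the groups than S100a8 and S100a9 did, the calcium-binding proteins that form calprotectin in the neutrophil cytosol and that monocytes also make. S100a8 had 755 and 1883 on the rosiglitazone arrays, against 76047 and 131937 on the vehicle arrays, and S100a9 had 936 and 1199 against 45381 and 55514. In limma the 95% interval of the log2 fold change ran from -7.32 to -5.47 for S100a8 and from -6.10 to -5.04 for S100a9. The lowest bound among the 5 tested granule and receptor probe sets was -2.07, for Mpo. None of the 5 intervals therefore reached those of S100a8 or S100a9. The filter used the mean over all 4 arrays, so low rosiglitazone values could take a probe set out of the test. Without it, the lower bounds in limma were -2.545 for Prtn3, -3.362 for Ngp and -3.793 for Chil3. The upper bounds without it were -4.43 for S100a8 and -4.953 for S100a9. Ctsg, the dimmer Mpo probe set, Csf3r 95808_g_at and Csf3r 93198_at, also untested, had differences above 0. None of the 5 tested probe sets had room above the floor for a measured fall as large as that of S100a8 or S100a9. The S100a8 call was lost without vehicle replicate 3 (adjusted p = 0.0582) and without vehicle replicate 4 (adjusted p = 0.0619), at log2 fold changes of -6.79 and -6.00, while that of S100a9 was kept with each array left out and was the only 1 of the 7134 when a vehicle array was missing. Without the filter on dim probe sets neither passed (adjusted p = 0.284 for S100a8 and 0.199 for S100a9).

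The room above the floor limits this comparison, so starting levels in part set how far a granule gene could fall. The floor lies below the arrays' background levels of 385 to 434, so the room above background was smaller still. Intensities under 148 were set to 148, so a gene cannot show a larger fall than its vehicle level over 148. That ceiling was 22.8-fold for Csf3r on its brightest probe set, 13.4-fold for Camp, 10.3-fold for Elane, 4.33-fold for Mpo on 100415_at and 4.2-fold for Ltf. For Chil3, Prtn3 and Ngp it was 3.69-fold, 3.57-fold and 3.16-fold, and for Ctsg 1.14-fold. A fall as large as the 47.4-fold one of S100a9 was therefore not measurable for any of the 12 probe sets. For each of the 5 probe sets tested the ceiling exceeded the largest fall inside its interval. That fall was 2.96-fold for Camp, 2.81-fold for Elane and for Csf3r, 2.19-fold for Ltf and 4.2-fold for Mpo. For Mpo and Ltf the filter on dim probe sets was the tighter limit. A fall to the floor would have put their mean below that filter, so the tested set could not hold one.

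**Figure D2:**
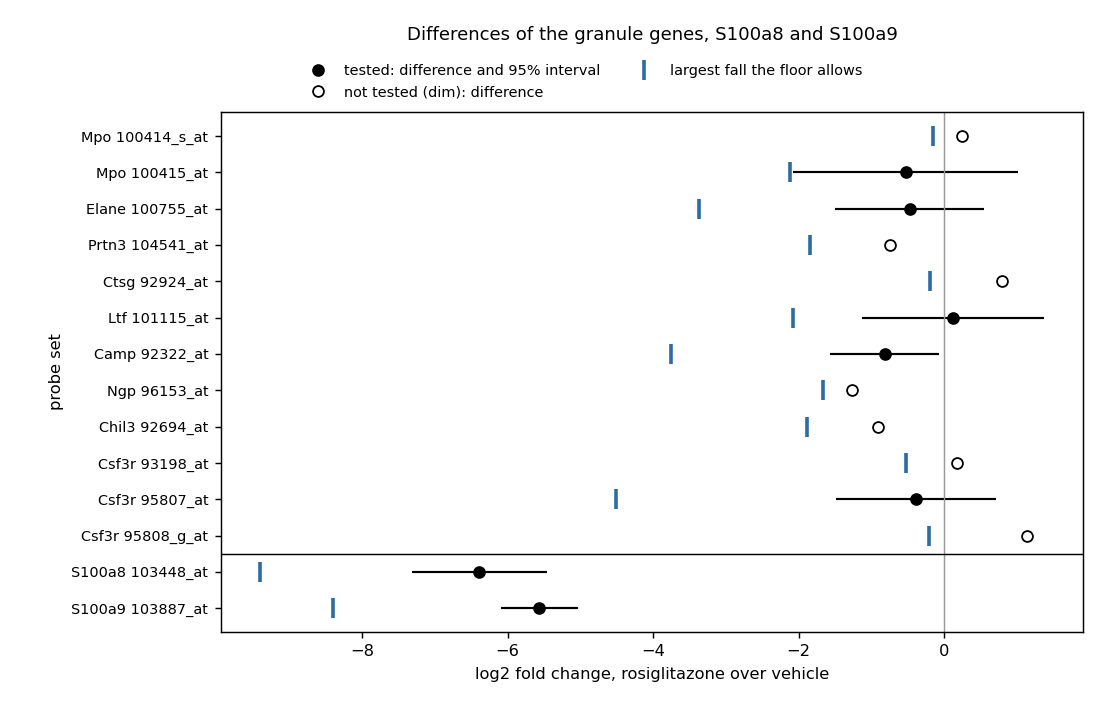
Log2 fold change (rosiglitazone over vehicle) of the 12 granule gene probe sets, with S100a8 and S100a9 below the line. Filled points carry limma's 95% interval, and open points were too dim to be tested. Blue ticks mark the largest fall the floor of 148 leaves room for. Among the granule gene probe sets it ran from 1.11-fold for the dimmer Mpo probe set to 22.8-fold for Csf3r 95807_at. For S100a8 it was 677-fold and for S100a9 339-fold.

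Leaving out 1 array at a time showed how far each granule gene rested on it. Camp moved least, from -0.89 to -0.74. Chil3 moved most, from -1.82 to 0.01, closely followed by Csf3r 95808_g_at, from 0.23 to 2.04. The signs of Elane, Ltf, Chil3, the dimmer Mpo probe set and Csf3r on 93198_at and 95807_at changed with at least 1 array left out. Those of Camp, Prtn3, Ngp, Ctsg, the brighter Mpo probe set and Csf3r 95808_g_at did not.

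**Figure D3:**
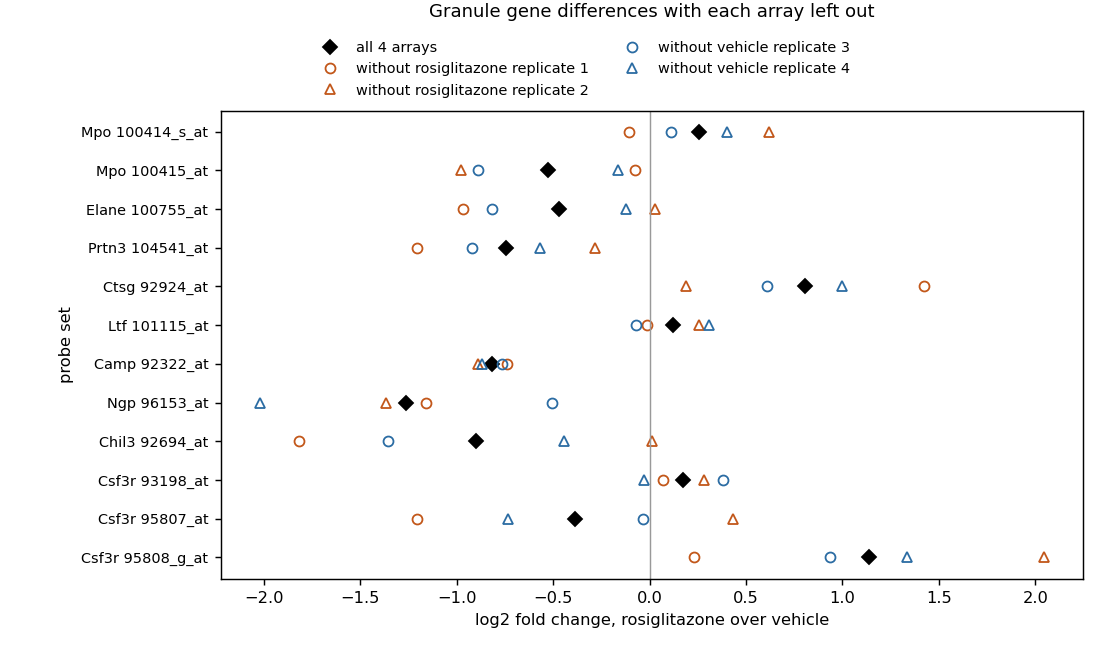
Log2 fold change (rosiglitazone over vehicle) of each granule gene probe set with all 4 arrays (diamonds) and with each array left out (open symbols, orange for rosiglitazone and blue for vehicle arrays). The symbols of Camp lie together between -0.89 and -0.74, while those of Ngp span -2.02 to -0.50.

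Genes that behave like a member were sought by the root mean square distance between centred log2 values over the 4 arrays, among probe sets tested. Nearest to Camp were Csk, Scd1 and Fscn1, at distances of 0.0391, 0.0415 and 0.0527 and with log2 fold changes of -0.78, -0.77 and -0.82. Nearest to Elane was Fv1 (0.0578), to Mpo Eif2s2 (0.0243), to Ltf Akirin1 (0.0173) and to Csf3r Txnl4a (0.0749). No other member was among the 3 nearest of any.

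Of 21 measured genes on the list of other granule proteins, 2 fell past the threshold, where 0.322% of all tested probe sets did. On this list 0 rose and 12 of the 14 tested did not pass, with a median log2 fold change of -0.46. Of the 21, 17 were below 0 and 11 were lower with no overlap between the groups, where 20.3% of all probe sets were, and 6 of the 14 had an unadjusted p under 0.05, where 10.9% of all tested did. The pair that fell does not belong to neutrophils alone. Arg1, arginase 1, had 101 and 94 with rosiglitazone, against 2772 and 2466 with vehicle. Both rosiglitazone arrays lay under the floor, and it fell at least 17.7-fold (limma, adjusted p = 0.0197). Slpi, an inhibitor of elastase and cathepsin G, had 3156 and 3258 with rosiglitazone, against 13154 and 18475 with vehicle (log2 fold change -2.28, adjusted p = 0.00422). Of the 3 other Slpi probe sets, 92858_at also fell (log2 fold change -3.11, adjusted p = 0.0455), whereas 162333_r_at and 162329_r_at had 0.47 and 0.40. Lcn2, lipocalin 2 of secondary granules, had -0.69 on the probe set with the higher mean log2 intensity and did not pass, while its other probe set, with both rosiglitazone arrays under the floor, fell at least 30.3-fold (adjusted p = 0.00214). Choosing each gene's probe set by mean intensity, which takes that probe set, gave 3 genes that fell on this list. Mmp9, the gelatinase of tertiary granules, had 101 and 187 against 1260 and 1062 with vehicle, and Anxa1, annexin 1, had 5866 and 4870 against 13282 and 10880. Both were lower on each rosiglitazone array without passing (adjusted p = 0.173 and 0.078). Of the other Anxa1 probe sets, 161703_f_at had a log2 fold change of -1.36 and 93037_i_at -0.06, and neither passed. Without vehicle replicate 3 or without vehicle replicate 4, 0 genes of this list passed, Arg1 and Slpi then having log2 fold changes of -4.06 and -2.53, and -4.23 and -2.04.

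Surface receptors and cytosolic proteins of neutrophils were measured for 20 genes, with a median log2 fold change of -0.78. S100a8 and S100a9 fell past the threshold, where 0.322% of all tested probe sets did. On this list 0 rose and 15 of the 17 tested did not pass. Of the 20, 16 were below 0 and 12 were lower with no overlap, where 20.3% of all probe sets were. An unadjusted p under 0.05 was found for 8 of the 17, against 10.9% of all tested. Clec4d, a C-type lectin receptor, had 395 and 114 with rosiglitazone, against 1752 and 2561 with vehicle (log2 fold change -3.13, adjusted p = 0.0799). Il1r2, the interleukin 1 decoy receptor, had 625 and 537 against 2828 and 2087 (-2.07, adjusted p = 0.0744) on the probe set with the higher mean log2 intensity and fell by 3.01 on the log2 scale on its other (adjusted p = 0.0209), which has the higher mean intensity and would make 3 genes that fell. Ly6g, the surface antigen used to identify mouse neutrophils, was named after its values were seen. It had 158 and 156 with rosiglitazone, against 415 and 539 with vehicle, near background and below the filter, so it was not tested. Cxcr2, the chemokine receptor of neutrophils, also named afterwards, had 509 and 320 with rosiglitazone, against 488 and 378 with vehicle, and these groups overlap. On this list S100a9 alone passed without vehicle replicate 3 or without vehicle replicate 4, while 3 genes passed with either of the rosiglitazone arrays left out.

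Granulocyte differentiation genes showed no call. Of 16 measured genes, Csf3r among them, 0 of 12 tested passed in limma, with a median log2 fold change of -0.06. An unadjusted p under 0.05 was found for 3 of the 12, against 10.9% of all probe sets tested. Cebpa, a transcription factor of both granulocytes and adipocytes, had 16627 and 19222 with rosiglitazone, against 12623 and 12382 with vehicle (0.52, adjusted p = 0.384). Socs3, a feedback inhibitor of the G-CSF receptor, had 357 and 434 against 1190 and 1050 (-1.51, adjusted p = 0.347). Its dimmer probe set, 92232_at, had -0.11, with both rosiglitazone arrays under the floor, and was not tested. Cebpd, a C/EBP factor, had -0.66 and Mcl1, a survival protein of neutrophils, -0.57. Among 8 measured genes of dividing cells and marrow precursors, 5 were above background on both arrays of either group, with a median of -0.17 and 0 of 5 tested past the threshold in limma. The unadjusted p was under 0.05 for 1 of those 5, against 10.9% of all tested. That gene was Cd34, which endothelium also expresses. Myb, a factor of marrow precursors, lay under the floor on all 4 arrays, at 46 and 28 with rosiglitazone, against 142 and 70 with vehicle.

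Genes around the missing Fpr1, the formyl peptide receptor and oxidase pathway, had a median of -0.40 over 12 measured genes. In limma 0 of 9 tested passed the threshold and 4 had an unadjusted p under 0.05, where 10.9% of all tested did. Fpr2, a related formyl peptide receptor and the neighbour of Fpr1 on chromosome 17, had 196 and 614 with rosiglitazone, against 1346 and 1432 with vehicle (log2 fold change -2.001, adjusted p = 0.284). Ncf4, a cytosolic subunit of the phagocyte oxidase, had 330 and 60 against 1160 and 1689 (-2.66, adjusted p = 0.158). Gnb1, a G-protein subunit, had -0.91 on its brightest probe set.

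Among inhibitors of the granule proteases, 2 of 7 tested genes fell past the threshold, where 0.322% of all tested probe sets did. An unadjusted p under 0.05 in limma was found for 4 of the 7, against 10.9% of all tested. Of the 13 measured, 7 were lower with no overlap between the groups, where 20.3% of all probe sets were, and 0 were higher. Besides Slpi, which this list shares, Serpina3n, a serpin whose targets include cathepsin G, had 1100 and 601 with rosiglitazone, against 4928 and 3434 with vehicle (log2 fold change -2.34, limma adjusted p = 0.0477). The median over 13 measured genes was -0.26. Serpinb6a had -1.55 (adjusted p = 0.0799) and Serping1, the C1 inhibitor, -0.47 (adjusted p = 0.436). Serpina3n lost its call under several settings, with adjusted p = 0.0914 when arrays were centred on their medians and 0.0704 after quantile normalization. Without vehicle replicate 3 or without vehicle replicate 4, 0 genes of the list passed, with Serpina3n at -2.08 and -2.60.

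Among markers of other blood cells, 1 macrophage gene fell past the threshold, where 0.322% of all tested probe sets did. The 9 measured macrophage markers all had a log2 fold change below 0, with a median of -0.76. All 9 were lower with no overlap between the groups, where 20.3% of all probe sets were. Of the 8 tested, 4 had an unadjusted p under 0.05 in limma, where 10.9% of all tested did. Summed over the 9, intensity was 15694 to 16467 with rosiglitazone and 48755 to 49547 with vehicle. Without Cd14 the sums of the other 8 were 12971 and 12052 with rosiglitazone, against 22018 and 21925 with vehicle. Of the 9 markers, 6 were above background on both rosiglitazone arrays and 8 on both vehicle arrays, none was listed at 0, and Cd14, the lipopolysaccharide co-receptor, was the only macrophage marker to pass (limma, adjusted p = 1.45e-04). That call was lost without vehicle replicate 3 (-2.91) and without vehicle replicate 4 (-2.95). The 17 measured neutrophil markers, which include the granule genes, summed to 11120 to 13594 with rosiglitazone and 135924 to 201889 with vehicle. Without S100a8 and S100a9 the sums of the other 15 were 11903 and 8038 with rosiglitazone, against 14496 and 14438 with vehicle. Csf3r on 95807_at was the largest part on each array, at 4567 and 1465 with rosiglitazone, against 4304 and 2650 with vehicle. Lcn2 entered these sums with 1175 and 1332, against 1715 and 2370. Its other probe set, left out of them, had 145 and 57 with rosiglitazone, against 3982 and 5054 with vehicle. Of 5 measured eosinophil markers, 0 were above background on both arrays of either group. The median log2 fold change was -0.36 for 6 erythroid markers and -0.19 for 10 lymphocyte markers, with 0 of either past the threshold in limma. An unadjusted p under 0.05 was found for 3 of 5 tested erythroid and 1 of 6 tested lymphocyte markers. How far macrophages contributed to the Chil3, Csf3r, S100a8 and S100a9 values was not tested.

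**Figure D4:**
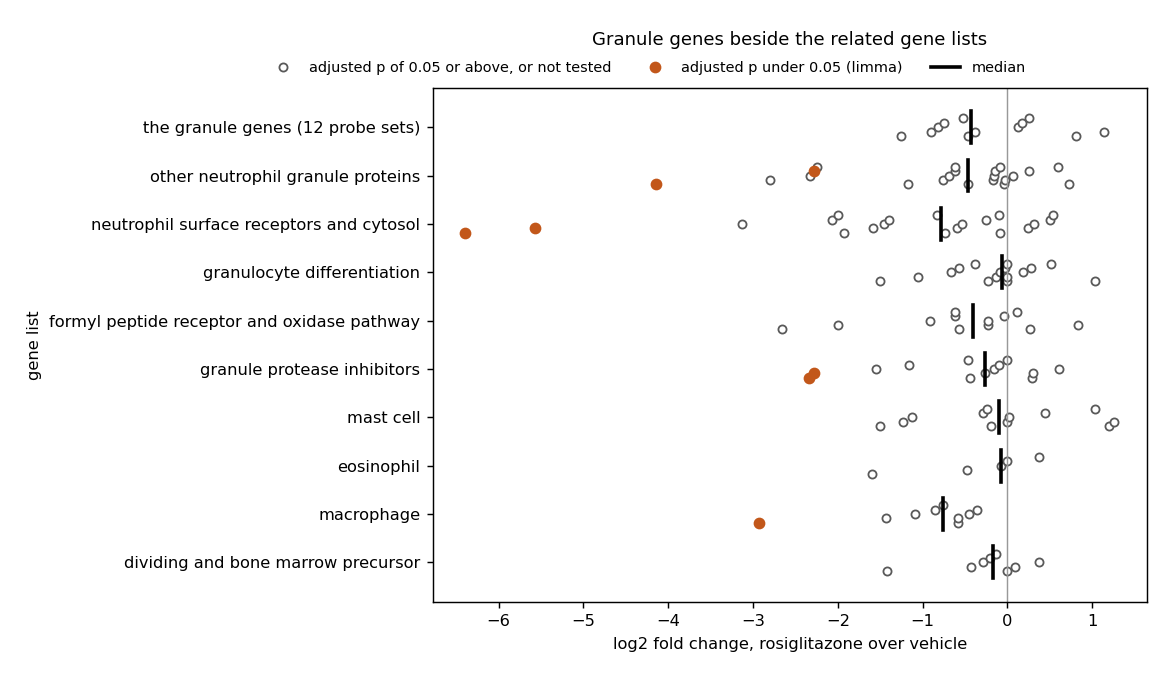
Log2 fold change (rosiglitazone over vehicle) of the granule gene probe sets and of each measured gene of the related lists, on the probe set of a gene with the highest mean log2 intensity. Orange points passed an adjusted p of 0.05 in limma and black bars are medians; no granule gene point is orange, and the granule gene median lies at -0.43.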

How the data were processed

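The deposited values are linear hybridisation intensity, as whole numbers from 2 to 616423. The software and background correction behind them are not given in the sources used here. With 2% trimmed at each end the mean was 1501 on every array, so a common scaling had been applied. Names came from the platform's annotation, updated by gene identifier through a GRCm38.p6 table (0 symbols changed). Of 12488 probe sets, 66 controls were left out.

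A floor of 148, the 20th percentile of the pooled values, was applied before log2. Probe sets whose mean log2 value was under that of 414, the 40th percentile, were not tested, which left 7134. Groups were compared with limma 3.58.1 in R 4.3.3 (intensity trend, degrees of freedom 2 residual, 7.14 prior at the median), two-sided, Benjamini-Hochberg over the 7134, threshold 0.05. The procedure was tested on simulated data, with large changes placed only in probe sets well above the filter. Of the tested members only Csf3r 95807_at was that bright, so the simulation does not cover the dimmer ones. An exact permutation test of 2 against 2 arrays cannot go below p = 0.333.

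The text names every member, S100a8 and S100a9, up to 4 genes of each list by smallest p, and the nearest probe sets of each tested member. Lcn2, Ly6g, Cxcr2 and Myb were named after their values were seen. Lists were described by counts and medians, taking for each gene the probe set with the highest mean log2 intensity. A choice by mean intensity was added after seeing the data. The members and lists were chosen with earlier results of these data known.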

Additional observations from a re-analysis of the deposited data

How the results depend on the processing

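The count of 0 member probe sets past the threshold held under all 11 alternatives run, among them another scaling, other floors, no filter on dim probe sets, no intensity trend and each array left out. Over all probe sets 26 passed, against 17 with arrays centred on their medians, 7 without the trend, 0 without the filter or with the floor at the 40th percentile, 47 and 78 without rosiglitazone replicate 1 and 2, and 1 without vehicle replicate 3 or 4. The median over member probe sets ran from -0.42 to 0.11 with 1 array left out. With 1 array left out, Ltf ran from -0.068 to 0.31, Elane from -0.97 to 0.026 and Csf3r 95807_at from -1.21 to 0.43. The lone array is then assumed to vary like those of the other group. How many member probe sets counted as above background on both arrays depended on the limit. At the arrays' 20th percentile it was 11 for rosiglitazone and 9 for vehicle, and at the 50th 3 for each. Above the median of 15 Bacillus control probe sets it was 12 for rosiglitazone and 10 for vehicle, and above the highest of them 2 and 3. Without the trend S100a9, Arg1 and Lcn2 on 160564_at kept their calls in limma (adjusted p = 0.0214, 0.0362 and 0.0244), whereas S100a8, Cd14, Slpi and Serpina3n lost theirs (adjusted p = 0.0905, 0.107, 0.24 and 0.317). No paired analysis was possible because the groups share no replicate number. Of the 12 probe sets 7 lay below the filter, so their differences rest on signal near background.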
